A study of Mus musculus with 9 samples.

Results

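The 31 genes described here mark granulocytes, monocytes and macrophages. They were chosen by name, and where a gene had several single-symbol probe sets, the one with the largest 9-array mean was read. All 31 were measured, out of 18193 genes in all. L8057 is a mouse leukaemia line of the megakaryocyte lineage, and its cells were profiled on one-colour arrays in 3 groups of 3 arrays. In CBFb_KD a lentiviral shRNA targeted CBFb, the partner subunit that stabilises RUNX proteins on DNA. In Ring1b_KD the shRNA targeted Ring1b, the ubiquitin ligase subunit of Polycomb repressive complex 1. Control cells carried an empty vector and so, by their label, no shRNA. Cells of every group were selected with puromycin from 48 h after infection and received 50 nM TPA, a phorbol ester that drives maturation, at the same time. RNA was harvested 72 h after that, at the end of 3 days in TPA. The submitters call the arrays of a group biological triplicates, without stating whether each came from an infection of its own. The p-values therefore cover no more than the spread between arrays, whose number limits the precision.

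Granulocytes and monocytes arise from progenitors that also give megakaryocytes. PU.1 and the C/EBP factors switch on their programme of colony-stimulating factor receptors, granule proteins, pattern receptors and the oxidase that makes superoxide. RUNX1 with CBFb acts in blood progenitors of both branches and is known to bind regulatory elements of several myeloid genes. Phorbol esters turn some leukaemia lines towards macrophages, whereas L8057 is used as a model of megakaryocyte maturation.

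The lysozyme pair is shown at the sequence level, because Lyz1 and Lyz2 are neighbouring duplicates on mouse chromosome 10 whose signals are hard to tell apart. The 250 bases before each transcription start are given from RefSeq (GRCm38.p6, minus strand, written 5′ to 3′), at chr10:117292869-117293118 for Lyz1 and chr10:117282273-117282522 for Lyz2. Capitals mark the matches to 3 motifs searched on both strands, namely TGTGGT or TGCGGT (RUNX), TTGCNNAA (C/EBP) and GAGGAAGT (PU.1).
Lyz1: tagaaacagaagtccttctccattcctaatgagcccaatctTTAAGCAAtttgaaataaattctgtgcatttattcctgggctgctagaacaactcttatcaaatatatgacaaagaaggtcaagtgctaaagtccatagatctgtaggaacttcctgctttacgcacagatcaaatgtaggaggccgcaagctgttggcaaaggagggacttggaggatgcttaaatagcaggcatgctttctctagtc
Lyz2: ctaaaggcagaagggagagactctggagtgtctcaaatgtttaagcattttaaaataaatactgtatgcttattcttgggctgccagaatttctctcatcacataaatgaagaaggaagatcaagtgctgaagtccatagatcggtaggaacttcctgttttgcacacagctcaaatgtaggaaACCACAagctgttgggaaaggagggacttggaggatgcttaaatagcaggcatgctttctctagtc
Lyz1 held 1 C/EBP match, TTAAGCAA, whose first base is at position -209 from the start, and Lyz2 held 1 RUNX match, ACCACA, whose first base is at -66. With 50 bases after the start included, the windows of the pair were identical at 249 of 298 aligned bases (83.6%). Windows were held for 23 of the 31 genes. The RUNX motif was found in 7 of their 25 windows, the C/EBP motif in 8 and the PU.1 motif in 1, against 22.4%, 10.8% and 3.2% of all 32851 windows of this length. Overlapping windows of Fcgr3 each held a RUNX and a C/EBP match. Counted by gene, the motifs were found in 6, 7 and 1 of the 23 genes. With 1 match in each printed sequence, none overlapped there, and a match is a string of letters, not a measured binding site.

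A floor was set from genes of other tissues, since no detection calls were used here. It is the 95th percentile, 8.15 (log2 signal), of the 9-array means of 63 measured genes that blood cells are not known to express, such as those of lens, muscle, liver and testis. A gene was above the floor in a group when all 3 of its arrays exceeded that value. The highest of these 63 genes were Tff1 at 10.73 and Afp at 9.65, so a signal above the floor is not proof of expression. In this sense 37.4% of all genes were above the floor in every group. Probe sets differ in how strongly they bind their target, so signals were compared between arrays and with the floor, and not between genes. For 1 gene the signal of a culture cannot tell fewer cells of a type from less RNA per cell.

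Of the 31 genes, 2 were above the floor in every group, Lyz2 and Ccr2. By the same rule, 3 of the 63 genes of other tissues that set the floor were above it in every group. In CBFb_KD 5 of the 31 genes were above it (16.1%), in Ring1b_KD 3 (9.68%) and in Control 2 (6.45%). The additional genes were Lyz1, Cd200r1 and Cd24a in CBFb_KD, and Cd200r1 in Ring1b_KD. No array exceeded the floor for 25 of the genes, whose signals ran from 4.31 to 8.07, and Csf1r exceeded it on 1 array. For those 25 genes the median range over the 9 arrays was 0.35, and it was 0.37 for all 10168 genes with no array above the floor.

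**Figure D1:**
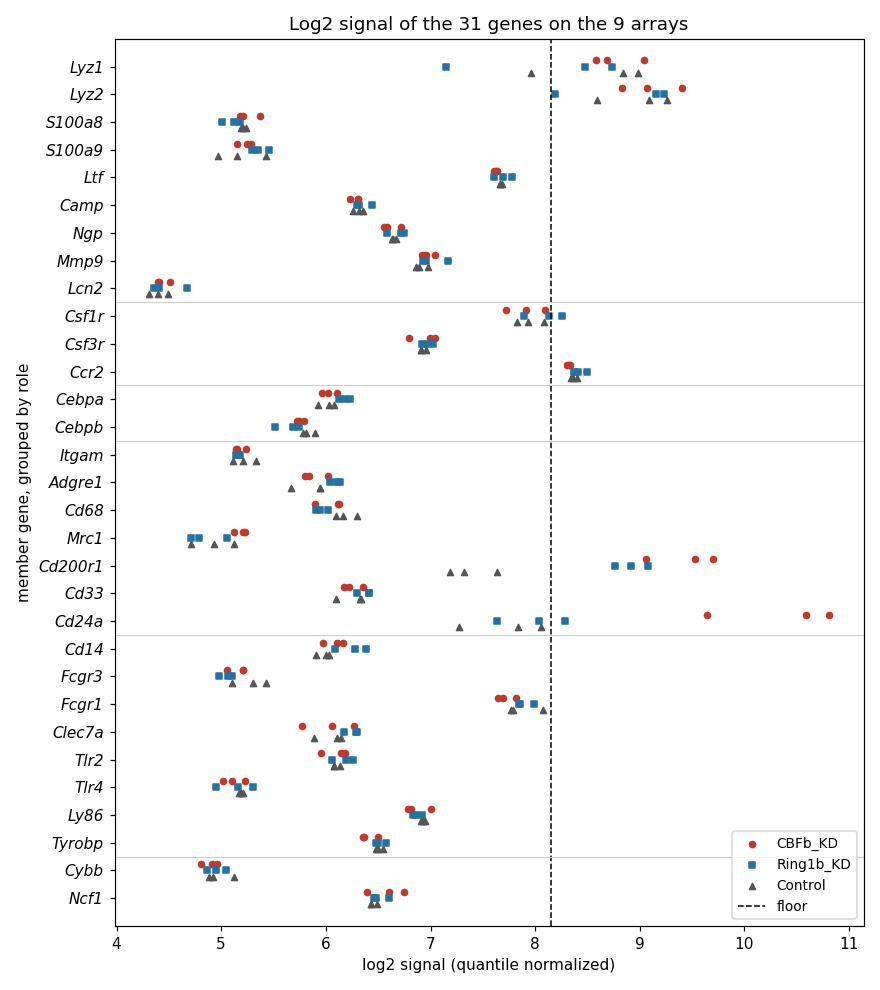
Log2 signal (x axis) of the 31 genes (rows, grouped by role) on the 3 CBFb_KD, 3 Ring1b_KD and 3 Control arrays, with the floor of 8.15 as a dashed line. Most rows lie left of the line with their 9 points close together, and Cd24a and Cd200r1 spread across it by group.

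The same arrays carried transcripts of the labelled lineage. Of 15 measured megakaryocyte markers 8 were above the floor in CBFb_KD, 5 in Ring1b_KD and 6 in Control, those in Control being Itga2b, Gp9, Pf4, Gata1, Zfpm1 and Fli1. Itgb3, Gp1bb, Gp6, Ppbp, Vwf, Nfe2 and Tubb1 were above it in no group. Of other lineages, 2 of 7 erythroid markers (Epor and Klf1), 3 of 9 mast cell markers (Kit, Cpa3 and Cma1) and 1 of 8 stromal markers (Col1a2) were above the floor in every group, while 0 of 7 B cell and 0 of 9 T and NK cell markers were above it in any. The targeted transcripts were lower where the labels place them. Cbfb had log2 signals of 9.19 ± 0.11 in CBFb_KD and 12.36 ± 0.12 in Control (SD, n = 3), and Rnf2, which encodes Ring1b, had 8.98 ± 0.08 in Ring1b_KD and 10.65 ± 0.08 in Control.

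Among granule and secreted proteins, Lyz2 passed the floor on 9 arrays and the chosen Lyz1 probe set on 7. The other 7 genes did not pass it on any array. Lysozymes cut bacterial cell walls, Lyz2 being the macrophage form and Lyz1 that of Paneth cells. Lyz2 had log2 signals of 9.07, 9.41 and 8.83 in CBFb_KD, 9.23, 9.16 and 8.19 in Ring1b_KD, and 9.09, 9.26 and 8.59 in Control. The groups overlapped, and the lowest values came from array 3 of Ring1b_KD and array 3 of Control. Lyz1 read 8.69, 9.04 and 8.58 in CBFb_KD, 8.73, 8.48 and 7.15 in Ring1b_KD, and 8.84, 8.98 and 7.96 in Control. The same arrays were lowest. Neither gene was called in any comparison in the fit without a replicate block, and the log2 fold change of Lyz1 between CBFb_KD and Ring1b_KD had a 95% interval from -0.09 to 1.39. The chosen Lyz1 probe set is of a type whose probes can bind several sequences, and the other 2 Lyz1 probe sets were below the floor on every array. One, of the same type as the chosen one, averaged 7.34 in CBFb_KD, 6.72 in Ring1b_KD and 7.21 in Control. Array 3 of Ring1b_KD was again its lowest, at 5.91. The other, not of that type, averaged 4.99 in CBFb_KD, 4.86 in Ring1b_KD and 4.90 in Control. It read 4.94 on array 3 of Ring1b_KD and 4.93 on array 3 of Control, within its range of 4.75 to 5.03. The Lyz1 signal is therefore uncertain as a measure of Lyz1 apart from Lyz2.

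The neutrophil granule genes stayed below the floor and varied little. S100a8 and S100a9, which encode the calcium-binding subunits of calprotectin, ranged over the 9 arrays from 5.01 to 5.37 and from 4.97 to 5.45. Ltf (lactoferrin) ranged from 7.61 to 7.78, Camp (the cathelicidin peptide) from 6.23 to 6.44 and Ngp (neutrophilic granule protein) from 6.55 to 6.75. Mmp9, a gelatinase of tertiary granules, ranged from 6.86 to 7.17, and Lcn2, which sequesters bacterial siderophores, from 4.31 to 4.67. None of these was called, and their log2 fold changes between any pair of groups lay between -0.14 and 0.19.

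Receptors for growth factors and chemokines sat on either side of the floor without a difference between groups that passed the test. Csf1r, the receptor for macrophage colony-stimulating factor, lay close to the floor, with 8.09, 7.91 and 7.72 in CBFb_KD, 7.90, 8.14 and 8.25 in Ring1b_KD, and 8.08, 7.83 and 7.94 in Control. Array 3 of Ring1b_KD alone exceeded the floor, and the groups overlapped. Csf3r, the granulocyte colony-stimulating factor receptor, ranged from 6.79 to 7.04. Ccr2, the receptor that draws inflammatory monocytes out of the marrow, lay just above the floor, at 8.34, 8.32 and 8.30 in CBFb_KD, 8.37, 8.49 and 8.41 in Ring1b_KD, and 8.34, 8.40 and 8.36 in Control. These arrays differed by 0.19 at most. The 3 other Ccr2 probe sets averaged between 4.97 and 5.87 in the groups, so its place above the floor rested on 1 probe set of 4.

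The lineage transcription factors Cebpa, which opens the granulocyte programme, and Cebpb, which acts in emergency granulopoiesis and macrophages, were below the floor on every array. Cebpa ranged from 5.93 to 6.23 and Cebpb from 5.52 to 5.90. Against Control, Ring1b_KD had log2 fold changes of 0.17 for Cebpa (limma adjusted p = 0.16) and -0.18 for Cebpb (limma adjusted p = 0.155).

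Surface molecules held all the calls among the 31 genes. Itgam, the alpha chain of the complement receptor integrin of phagocytes, ranged from 5.11 to 5.33, and Adgre1, the classical mouse macrophage antigen, from 5.67 to 6.14. Cd68, a lysosomal glycoprotein, ranged from 5.90 to 6.30, and Cd33, a sialic acid receptor, from 6.10 to 6.41. These 4 were not called in any comparison of the quantile-normalized values.

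Cd200r1 (chromosome 16, 44765736 to 44794977 on GRCm38.p6), an inhibitory receptor of macrophages and mast cells that binds CD200, rose in both knockdowns. Its log2 signals were 9.06, 9.70 and 9.53 in CBFb_KD, 9.08, 8.92 and 8.76 in Ring1b_KD, and 7.32, 7.63 and 7.19 in Control. All arrays of both knockdowns lay above all Control arrays, and above the floor that no Control array reached. The log2 fold change was 2.05 in CBFb_KD (SE 0.16, 4.13-fold, limma adjusted p = 6.54e-06) and 1.54 in Ring1b_KD (SE 0.16, 2.91-fold, limma adjusted p = 9.52e-05). These comparisons share the Control arrays. CBFb_KD exceeded Ring1b_KD by 0.51 (limma adjusted p = 0.0372), with overlapping arrays, and that call was lost without either of CBFb_KD arrays 2 and 3, without either of Ring1b_KD arrays 2 and 3, without Control array 1, without array 3 of every group (0.38, limma adjusted p = 0.27), and with only the 6 arrays of these groups in the fit (limma adjusted p = 0.0506). A further Cd200r1 probe set, below the floor on every array, rose by 1.13 in CBFb_KD when all probe sets were tested (limma adjusted p = 0.00295). In Ring1b_KD its log2 fold change was 0.54 (limma adjusted p = 0.117), so the rise there was called for 1 of 2 probe sets.

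Cd24a (chromosome 10, 43579169 to 43584265 on GRCm38.p6), a lipid-anchored glycoprotein of neutrophils, B cells and erythroid precursors, rose in CBFb_KD. It read 10.59, 10.81 and 9.65 in CBFb_KD, 8.28, 8.03 and 7.64 in Ring1b_KD, and 7.83, 8.06 and 7.27 in Control. The CBFb_KD arrays stood clear of all 6 others, while the Ring1b_KD and Control arrays overlapped. In CBFb_KD the log2 fold change was 2.63 against Control (SE 0.27, 6.18-fold, limma adjusted p = 4.88e-05) and 2.36 against Ring1b_KD (limma adjusted p = 7.32e-05). In Ring1b_KD it was 0.26 against Control, with a 95% interval from -0.32 to 0.85 (limma adjusted p = 0.584). All 3 Cd24a probe sets rose in CBFb_KD against Control, by 2.63, 2.36 and 2.55 on the log2 scale, and the limma adjusted p of the other probe sets was 8.29e-05 and 0.00027.

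Mrc1, the mannose receptor of macrophages, was below the floor on every array, with 5.20, 5.22 and 5.13 in CBFb_KD, 5.05, 4.79 and 4.71 in Ring1b_KD, and 4.93, 5.12 and 4.71 in Control. The CBFb_KD arrays lay above all others by small steps. The log2 fold change of 0.33 against Ring1b_KD was called (limma adjusted p = 0.0473), but that call held in 9 of the 19 alternative settings that gave a value. It was lost without each single CBFb_KD array, Ring1b_KD array 2 or 3, or Control array 1. Against Control the log2 fold change of Mrc1 was 0.26 (limma adjusted p = 0.139). With the replicate number as a block and only these 6 arrays it passed (limma adjusted p = 0.0426).

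**Figure D2:**
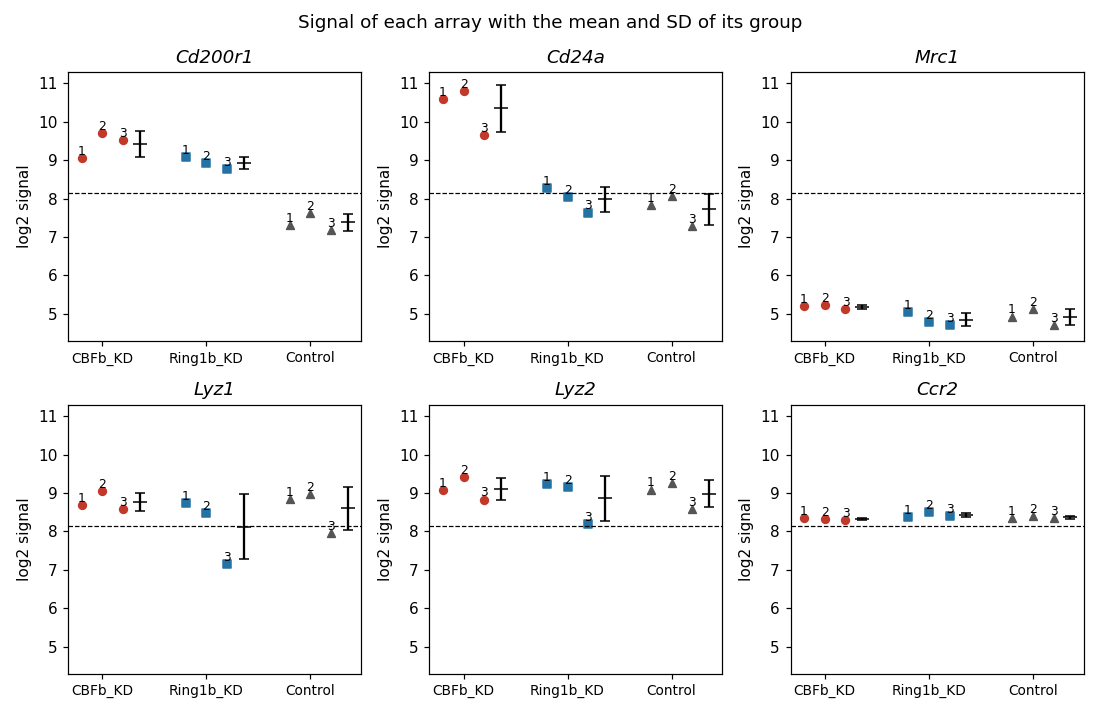
Log2 signal (y axis) of 6 genes on each array (points numbered by array) in CBFb_KD, Ring1b_KD and Control, with the group mean and SD (n = 3) at the right of each group and the floor of 8.15 dashed. Cd200r1 is higher in both knockdowns than in Control, Cd24a is higher in CBFb_KD than in Ring1b_KD and Control, and array 3 is low for the lysozymes in Ring1b_KD and Control.

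**Figure D3:**
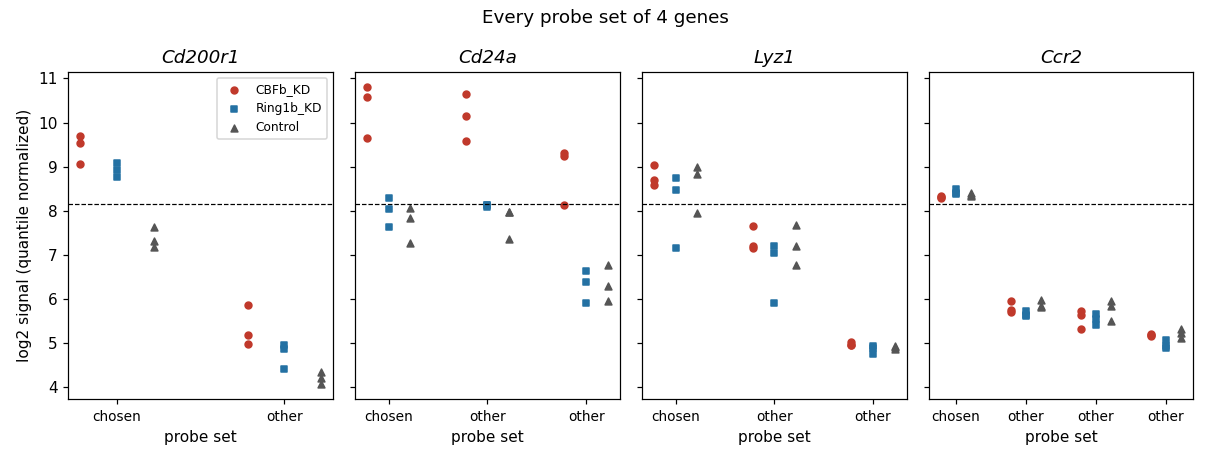
Log2 signal (y axis) of every probe set of Cd200r1, Cd24a, Lyz1 and Ccr2 (x axis, the chosen one first) on the 9 arrays, with the floor dashed. The 3 Cd24a probe sets separate CBFb_KD in the same way, whereas the other Ccr2 probe sets and 1 of Lyz1 lie far below the chosen ones.

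Pattern recognition and Fc receptors made up 8 of the genes. None was called in the quantile-normalized values of all 9 arrays, and none passed the floor on any array. Cd14, the co-receptor for lipopolysaccharide, ranged from 5.91 to 6.38, and Tlr4, the receptor that signals it, from 4.95 to 5.30. Tlr2, which senses bacterial lipopeptides, ranged from 5.96 to 6.26, Clec7a, the beta-glucan receptor dectin-1, from 5.77 to 6.30, and Ly86, the partner of CD180, from 6.78 to 7.00. The Fc receptors Fcgr3 and Fcgr1 ranged from 4.98 to 5.43 and from 7.65 to 8.07, and Tyrobp, an adaptor that carries activating signals, from 6.35 to 6.57. The log2 fold change of Clec7a was -0.22 between CBFb_KD and Ring1b_KD (limma adjusted p = 0.209), and was called as lower in CBFb_KD without CBFb_KD array 1 (-0.34, limma adjusted p = 0.0459). With all arrays quantile normalized, Cd14 came nearest to a call, at 0.27 in Ring1b_KD against Control (limma adjusted p = 0.0692) with no overlap of the arrays. In the values as deposited Cd14 was called there (0.35, limma adjusted p = 0.0217). The phagocyte oxidase genes Cybb, the catalytic membrane subunit, and Ncf1, a cytosolic organiser, ranged from 4.80 to 5.12 and from 6.39 to 6.75 and were not called.

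Across the 31 genes, CBFb_KD against Control called 2 genes, both higher, where limma called 15.3% of all genes, 7.77% being higher. The arrays did not overlap for 5 of the 31, against 31.6% of all genes. The median log2 fold change of the 31 was -0.01, as was that of all genes. The 29 genes not called had log2 fold changes from -0.16 to 0.26, and 27 of their 95% intervals lay within 0.5 of 0, the exceptions being Lyz1 and Lyz2.

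Ring1b_KD against Control called 1 gene, Cd200r1, against 12.2% of all genes, 5.66% being higher. The arrays did not overlap for 8 of the 31, against 32.9% of all genes, and the median log2 fold changes were 0.04 for the 31 and 0.01 for all genes. The 95% intervals of 27 of the 30 genes not called lay within 0.5 of 0, the exceptions being Lyz1, which reached -1.22, Lyz2 and Cd24a. In the values as deposited, 4 genes were called as higher, with Cebpa at 0.26, Adgre1 at 0.33 and Cd14 at 0.35 beside Cd200r1. Of all genes 14.2% were called there, 882 as higher and 1709 as lower. The deposited array medians were highest in Ring1b_KD, and their part in these calls was not tested. Without Ring1b_KD array 2, Cd14 was called beside Cd200r1.

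CBFb_KD against Ring1b_KD called 3 genes, Cd24a, Cd200r1 and Mrc1, all higher, against 19.4% of all genes, 10.1% being higher. The arrays did not overlap for 8 of the 31, against 33.8% of all genes, and the median log2 fold changes were -0.04 for the 31 and -0.02 for all genes. Only Cd24a was called without CBFb_KD array 2 or 3, Ring1b_KD array 2 or 3, or Control array 1. The share called differed by signal. In CBFb_KD against Control, limma called 30.7% of the 7441 genes with a 9-array mean above the floor and 4.7% of the 10752 others, and 26 of the 31 genes belonged to the others.

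**Figure D4:**
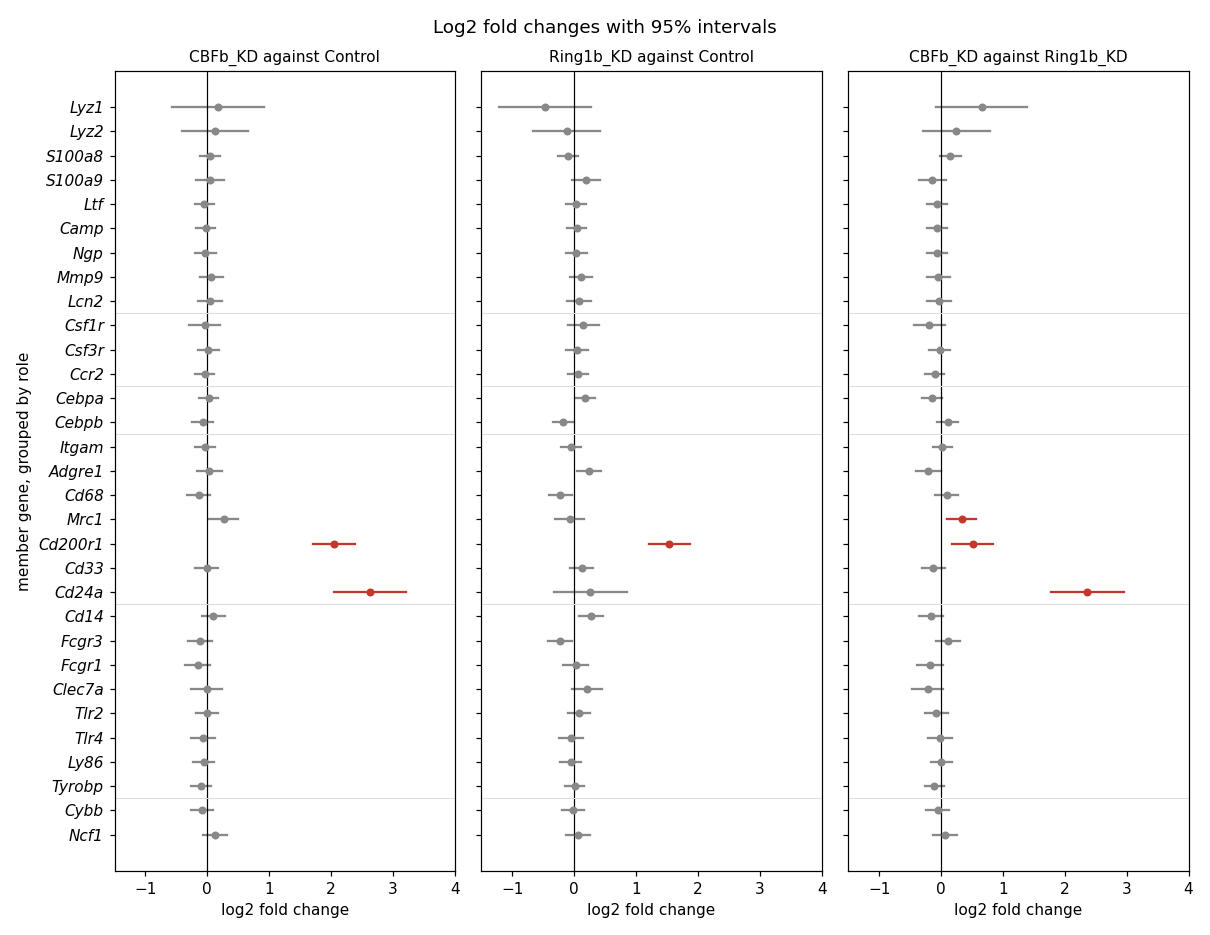
Log2 fold change (x axis) of each of the 31 genes (rows) with its 95% interval in CBFb_KD against Control, Ring1b_KD against Control and CBFb_KD against Ring1b_KD, in red where limma called the gene. Cd200r1 and Cd24a stand apart in CBFb_KD, Cd200r1 in Ring1b_KD, and most other intervals include 0.

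A wider list of 76 other myeloid genes, 66 of them measured, had 9 genes above the floor in CBFb_KD (13.6%), 11 in Ring1b_KD (16.7%) and 9 in Control (13.6%). Of all genes 39.5% were above it in CBFb_KD, 39.5% in Ring1b_KD and 39.6% in Control. In CBFb_KD against Control 9 rose and 1 fell, a share of 15.2%, against 15.3% of all genes. Prtn3, the neutrophil serine protease, read 8.35, 8.18 and 7.91 in CBFb_KD against 6.79, 6.76 and 6.62 in Control (log2 fold change 1.42, limma adjusted p = 3.82e-06). Itgb2, the beta chain shared by the leukocyte integrins, read 12.13, 12.55 and 12.02 in CBFb_KD against 10.48, 10.62 and 9.50 in Control (2.03, limma adjusted p = 9.38e-05). Its arrays were above the floor in every group, while Itgam, 1 of its alpha chain partners, was below it on every array. Itgal, another alpha chain, was called as higher in CBFb_KD (0.83, limma adjusted p = 0.000146). Csf2rb and Csf2rb2, near-identical receptor chains whose separate values are uncertain, rose by 3.35 and 2.76 on the log2 scale (limma adjusted p = 2.95e-05 and 4.24e-05). Csf2rb2 was above the floor in no group and passed it on 1 array, with 7.86, 8.53 and 7.10 in CBFb_KD. Csf2rb was also called as higher in Ring1b_KD against Control (1.15, limma adjusted p = 0.0336). That Ring1b_KD call was lost without Ring1b_KD array 1 or 2 or Control array 3. Ctsg, a granule protease, fell by 0.69 (limma adjusted p = 0.0364). Leaving out each single array of CBFb_KD or of Control took that call away.

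Of the wider list, 7 rose and 1 fell in Ring1b_KD against Control, a share of 12.1%, against 12.2% of all genes. The count called was 3 without Control array 2. It was 5 without Ring1b_KD array 1 or 2, and 4 without Ring1b_KD array 3 or Control array 1 or 3. The share of all genes called was lower at these settings too, running from 6.25% without Control array 3 to 11.2% without Ring1b_KD array 3, and was 6.72% without Control array 2. Clec4d, a C-type lectin receptor of myeloid cells, rose in both knockdowns while below the floor on every array, with 7.00, 7.20 and 7.09 in CBFb_KD, 7.36, 7.27 and 7.13 in Ring1b_KD, and 6.36, 6.37 and 6.40 in Control. Its log2 fold change was 0.73 in CBFb_KD (limma adjusted p = 0.0001) and 0.88 in Ring1b_KD (limma adjusted p = 5.85e-05). Rac2, a leukocyte GTPase that serves the phagocyte oxidase, rose by 0.59 in Ring1b_KD, Clec4n, dectin-2, by 0.37, and Fcgr2b, the inhibitory Fc receptor, by 0.45, and Ctsg fell by 0.80. Of these 4 calls, each was lost without at least 1 array. With probe sets averaged per gene, Rac2 stood at 0.37 (limma adjusted p = 0.122), Clec4n at 0.15 (limma adjusted p = 0.208) and Fcgr2b at 0.05 (limma adjusted p = 0.659), none of them called. Rac2 also rose in CBFb_KD against Control, by 0.74 (limma adjusted p = 0.00266).

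Between the knockdowns 8 genes of the wider list were higher and 3 lower in CBFb_KD, a share of 16.7%, against 19.4% of all genes. Prtn3 (1.59), Itgb2 (2.09), Csf2rb2 (2.45) and Csf2rb (2.20) led the higher ones on the log2 scale, and the lower ones were Fcgr2b (-0.57), Clec4n (-0.34) and Cebpd, a C/EBP factor (-0.26). None of these 3 was called on the mean of its probe sets, where Fcgr2b stood at -0.05, Clec4n at -0.13 and Cebpd at -0.13.

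Markers of other lineages moved in the same comparisons. In CBFb_KD against Control 7 of 15 megakaryocyte markers rose and 0 fell, where 15.3% of all genes were called. In Ring1b_KD against Control 0 rose and 2 fell, Vwf by 0.75 and Zfpm1 by 0.37 on the log2 scale, where 12.2% of all genes were called. The mean of the megakaryocyte markers' log2 signals per array ran from 9.31 to 9.40 in CBFb_KD, 8.32 to 8.72 in Ring1b_KD and 8.53 to 8.75 in Control. Of 7 erythroid markers 4 rose in CBFb_KD and 0 were called in Ring1b_KD against Control, with means from 7.91 to 8.27 in CBFb_KD, 7.33 to 7.52 in Ring1b_KD and 7.31 to 7.46 in Control. Of 9 mast cell markers 1 rose and 2 fell in CBFb_KD and 2 rose and 1 fell in Ring1b_KD against Control. Hdc, the histamine-forming enzyme, was higher and Ms4a2, the IgE receptor beta chain, lower in both. Kit was called as lower in CBFb_KD alone (-0.39, limma adjusted p = 0.0337). Fcer1a was called as higher in Ring1b_KD alone (1.61, limma adjusted p = 0.00447). Both Ms4a2 and Fcer1a were above the floor in no group, and each passed it on 1 array. Mast cells are known to carry Cd200r1, and erythroid precursors Cd24a. The part of these marker shifts in the values of Cd200r1 and Cd24a was not tested.

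**Figure D5:**
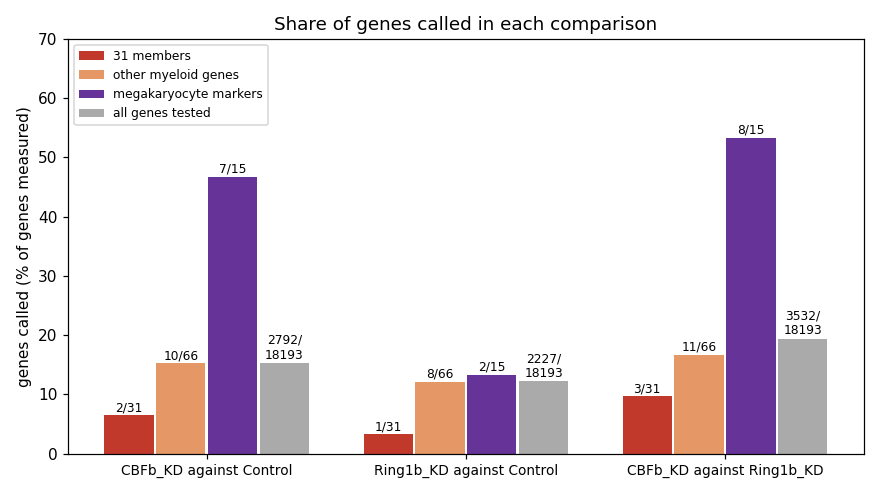
Share of measured genes called by limma (y axis, %) among the 31 genes, the other myeloid genes, the megakaryocyte markers and all genes tested, in each of the 3 comparisons, with called over measured genes above each bar. The 31 genes have 2, 1 and 3 calls, and the megakaryocyte markers have 7, 2 and 8 of 15. In Ring1b_KD against Control the bar of the megakaryocyte markers (13.3%) is near that of all genes (12.2%).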

How the data were processed

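The deposited table holds log2 values for 45101 probe sets on each array, as judged from their range (3.227 to 15.355). Which software and normalization produced them is not given in the sources used here. Per the labels' protocols, RNA was primed from its poly(A) tail and labelled with biotin during in vitro transcription. Deposited array medians ran from 6.514 to 6.651, a range above the limit of 0.1, so all probe sets other than 64 controls were quantile normalized with limma 3.58.1 (R 4.3.3). A probe table named 1 gene for 34945 probe sets. Group means were fitted to all 9 arrays with lmFit and eBayes(trend = TRUE), and the two-sided p-values were corrected for all 18193 genes (Benjamini-Hochberg), with calls at an adjusted p under 0.05. The fit was tested on simulated data.

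The genes, lists and tests were chosen with earlier results of these data known. All 31 genes are named. From the wider list, up to 4 called genes per direction and comparison with the smallest adjusted p are named, and Itgal beside Itgb2. Same-numbered arrays of CBFb_KD and Control deviated together from their group means over all genes (r = 0.203, 0.377 and 0.2). Differently numbered arrays of these groups had r from -0.35 to 0.15. Same-numbered pairs with Ring1b_KD had r from -0.07 to 0.15. The tests above did not pair arrays unless a replicate block is named. A block fit of only the 6 CBFb_KD and Control arrays was chosen after seeing the data. It called 3 of the 31 genes and 21.5% of all genes. Alternatives covered normalization, probe set choice, a floor filter, the variance model, a replicate block and leaving out arrays.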

Additional observations from a re-analysis of the deposited data

How the results depend on the processing

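Both rises of Cd200r1 against Control and both of Cd24a in CBFb_KD were called under all 20 alternatives that gave them a value. Settings that moved a count by more than 1.5 times were as follows. The count over all genes, 2792 for CBFb_KD against Control, was 1847 without CBFb_KD array 2, 1760 without Control array 3 and 1411 (7.76%) without array 3 of every group. For Ring1b_KD against Control, 2227 became 1222 without Control array 2, 1137 without Control array 3 and 906 (4.98%) without array 3 of every group. For CBFb_KD against Ring1b_KD, 3532 became 1598 (8.78%) without array 3 of every group. For the 31 genes, Ring1b_KD against Control gave 4 calls in the values as deposited, where 14.2% of all genes were called. It gave 2 in a paired fit (replicate number as block) of only 6 arrays, a setting chosen after seeing the data. These were Cd200r1, and Lyz1 with limma adjusted p = 0.0309, where 12.2% of all genes were called. Leaving out 1 array gave 2 calls in each case for CBFb_KD against Control, 1 to 2 for Ring1b_KD against Control and 1 to 3 for CBFb_KD against Ring1b_KD. The shares of all genes called then ran from 9.67% to 16.5%, from 6.25% to 13% and from 13% to 19.6%. Leaving out array 3 of every group, also chosen after seeing the data, gave 1 for the last comparison. For the other myeloid genes, CBFb_KD against Control gave 5 calls among the 11 genes with a mean above the floor. Of all genes with a mean above it, 37.1% were called in that fit. Ring1b_KD against Control gave 3 on averaged probe sets (9.78% of all genes called) and 5 with a robust variance (12.4% of all genes). It gave 3 without array 3 of every group and 3 to 9 without 1 array. CBFb_KD against Ring1b_KD gave 7 without array 3 of every group. Genes above the floor in every group numbered 1 with arrays centred on their medians (Ccr2), 1 with the mean of probe sets (Lyz2), 0 with the floor at its highest gene (10.73) and 5 with the floor at the median gene (7.42), which adds Ltf, Csf1r and Fcgr1. With the replicate number as a block and all 9 arrays, the 31 genes gave 2, 1 and 4 calls in the same order of comparisons. That fit called 17.3%, 14.3% and 21.6% of all genes. The last comparison added Lyz1 (0.65, limma adjusted p = 0.0263), which was not called with the block and only 6 arrays (limma adjusted p = 0.0651). The causes of these shifts were not tested. In CBFb_KD against Control, 4.7% of genes with a mean at or below the floor were called and 30.7% of those above it. On the mean over all arrays, 26 of the 31 genes were at or below it.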
